A study of Mus musculus with 4 samples.

Results

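Genes of the Ly6, PATE and uPAR-domain family were examined in the right testis of mice of the KM strain, and 41 of the 22073 genes in the deposited table belonged to it. Members were taken by name: every GENCODE symbol that begins with Ly6, Lypd or Pate, plus Lynx1, Spaca4, Tex101, Gml, Slurp1, Cd59a, Cd59b, Plaur, Psca, Gm17727 and D730048I06Rik. The rule uses no measured value, but Gm17727 and D730048I06Rik were added by name, with earlier results of these data known. The family's pseudogene Ly6e-ps1 was not analysed here. Before puberty, surgery took away the left testis in 2 mice, called hemicastrated, and 2 control mice were sham-operated at the same stage. The right testis of all 4 was collected at maturity. The labels name no genetic change and give no age. They speak of 3 mice per group in one place and of 2 in another, and state that RNA of 4 individuals was sequenced, so each library is 1 mouse; they also give the molecule as genomic DNA, although the protocol is for RNA. The comparison asks what the remaining testis expresses after its partner has been removed.

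These proteins share a small fold, often called the LU domain, that is held together by disulfide bonds and resembles the snake toxins that block acetylcholine receptors. Most Ly6 and Lypd proteins, Tex101, Cd59 and the urokinase receptor Plaur sit on the cell surface on a glycosylphosphatidylinositol (GPI) anchor, a lipid that is attached after the protein has been made. The PATE proteins, named for prostate and testis expression, lack the anchor and are secreted, many of them in the male ducts, where they can coat sperm. In germ cells, Tex101, Ly6k, Lypd4 and Spaca4 are known for their part in fertility, while Ly6a, Ly6c1 and Ly6e are better known from blood, vessel and stem cells.

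Values are FPKM, fragments scaled to transcript length and to the size of the library, as deposited, so that levels can be compared between genes as well as between libraries. Read depth is unknown. A value of 0 can be a failed estimate and is described as listed at 0. A gene was tested where its mean over the 4 libraries was at least 1 FPKM, which 21 members and 11343 genes in all reached. The test was limma on log2(FPKM + 1), and a gene was called at a Benjamini-Hochberg adjusted p under 0.05 over all genes tested. Summed FPKM lay between 343105 and 353135 per library, and the late spermatid marker genes Prm1, Prm2, Tnp1, Tnp2, Odf1 and Smcp together took 20148.9 and 21400.6 FPKM in the control pair against 22590.1 and 22512.3 FPKM in the hemicastrated pair. These are genes of condensing spermatids, high in testis.

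Of the 21 tested members, 6 fell after hemicastration and 0 rose. The 6 were the secreted PATE genes Pate1, D730048I06Rik (Pate6 in RefSeq) and Gm17727 (Pate7 in RefSeq) on chromosome 9, and the surface antigen genes Ly6f, Ly6e and Ly6a on chromosome 15. Among all tested genes 1.19% were called lower and 0.106% higher. At an unadjusted p under 0.05, 8 members were lower, Ly6c1 and Pate2 besides the 6, and 1, Spaca4, was higher, where 6.52% of all tested genes were lower and 3.98% higher at that threshold. Together the 6 genes stood at 195.4 and 243.8 FPKM in the control pair against 39.9 and 54.3 FPKM in the hemicastrated pair, while the other 35 members summed to 827.0 and 827.6 FPKM in the controls against 812.2 and 869.6 FPKM. The median log2 fold change, hemicastrated minus control, was -0.13 over the 21 tested members and -0.03 over all tested genes.

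Some marker genes of the sperm ducts and of smooth muscle fell in the same comparison. Of 29 epididymis markers in the table, 12 were tested and 5 fell (Crisp1, Adam7, Rnase9, Rnase12 and Defb22). Of the 7 tested ones that were not called, 5 had positive log2 fold changes: Cst8 at 0.28, Atp6v1b1 at 0.17, Defb30 at 0.09, Cftr at 0.02 and Rnase10 at 0.01. The summed level of the 29 was 786.8 and 1067.3 FPKM in the controls against 230.7 and 266.4 FPKM, most of the latter being Cst8, which was not called, at 169.3 and 199.7 against 206.3 and 241.7 FPKM. The lipocalins Lcn5, Lcn8 and Lcn10 were listed at 0 in all 4 libraries, and Lcn9 in both controls. In all, 4 of the 29 were listed at 0 in both controls and 11 in both hemicastrated libraries. Of 10 duct epithelium markers, 6 were tested and 4 fell (Akr1b7, Krt8, Krt18 and Krt19), with sums of 59.6 and 84.5 FPKM against 12.7 and 10.1 FPKM. Of 8 smooth muscle markers 5 fell (Cnn1, Tagln, Tpm2, Acta2 and Des), with sums of 317.4 and 290.9 FPKM against 214.6 and 237.9 FPKM. Most of each sum was Actg2, which was not called, at 218.7 and 213.2 against 183.5 and 209.3 FPKM. The part of these tissues in the values of Pate1, D730048I06Rik, Gm17727, Ly6f, Ly6e and Ly6a was not tested. In bulk tissue, a different amount of duct tissue in the sample, fewer cells of a type and less RNA per cell cannot be told apart.

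**Figure D1:**
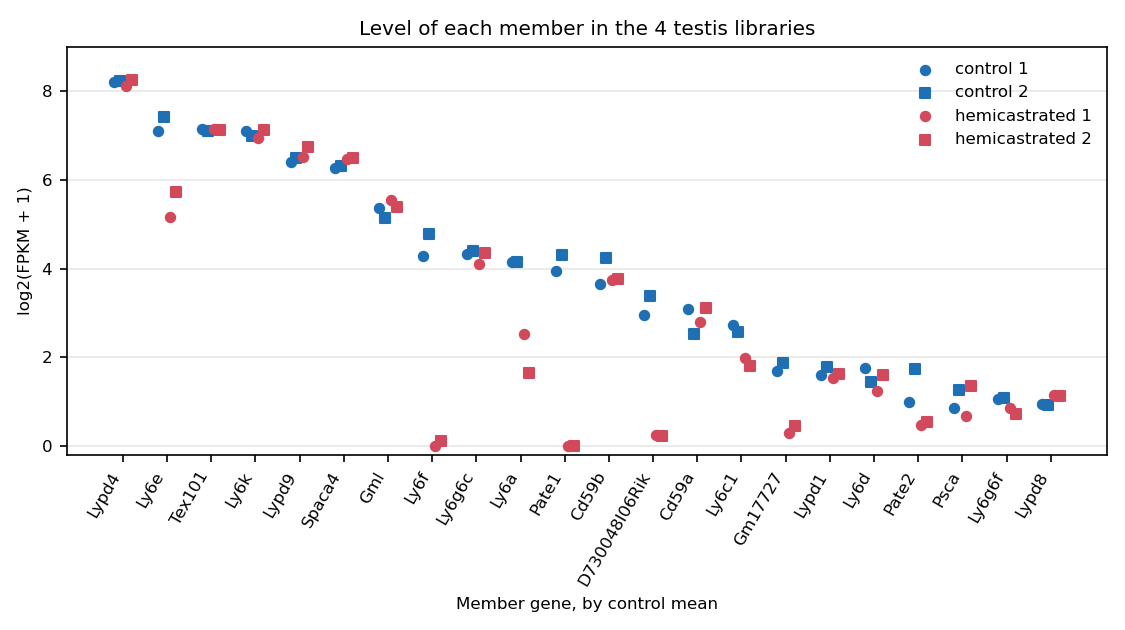
Level of the 22 members that reached 1 FPKM in at least 1 library, as log2(FPKM + 1), with 1 point per library and genes ordered by their control mean. The hemicastrated points of Ly6e, Ly6f, Ly6a, Pate1, D730048I06Rik and Gm17727 lie far below the control points, while those of Lypd4, Tex101 and Ly6k lie among them.

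The stretch of 250 bases before the annotated start is shown for 4 of the genes that fell. It is also shown for Tex101, a high germ cell member that was not called, picked by hand as an example. The sequences are RefSeq's for build GRCm38.p6, read 5′ to 3′ on the strand of the gene. Capitals mark matches on either strand to 4 short motifs: AGAACA, a core of androgen receptor binding sites; TGACGTCA, the cyclic AMP response element; TATAAA, the TATA box; and TTCNNNGAA, a binding site of STAT factors. The Tex101 window is read at the RefSeq start and lies inside the longer GENCODE gene, outside its exons. The Gm17727 window lies inside Gm27235, a longer gene on the same strand, outside its exons. It may therefore not be a promoter.
Pate1, chr9:35687372-35687621, minus strand: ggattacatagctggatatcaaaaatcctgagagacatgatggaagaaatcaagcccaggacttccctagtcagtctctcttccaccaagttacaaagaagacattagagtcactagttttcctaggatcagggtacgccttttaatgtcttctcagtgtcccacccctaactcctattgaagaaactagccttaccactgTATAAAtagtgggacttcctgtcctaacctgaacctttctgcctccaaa
D730048I06Rik, chr9:35790113-35790362, minus strand: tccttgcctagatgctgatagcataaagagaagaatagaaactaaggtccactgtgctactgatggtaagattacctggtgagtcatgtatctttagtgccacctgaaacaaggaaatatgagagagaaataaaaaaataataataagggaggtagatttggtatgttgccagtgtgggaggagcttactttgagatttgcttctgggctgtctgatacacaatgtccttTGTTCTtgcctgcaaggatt
Gm17727, chr9:35778110-35778359, minus strand: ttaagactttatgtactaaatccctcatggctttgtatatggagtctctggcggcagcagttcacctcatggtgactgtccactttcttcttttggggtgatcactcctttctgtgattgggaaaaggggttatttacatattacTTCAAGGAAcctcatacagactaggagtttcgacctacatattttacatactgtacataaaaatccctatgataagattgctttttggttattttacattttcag
Ly6f, chr15:75268171-75268420, plus strand: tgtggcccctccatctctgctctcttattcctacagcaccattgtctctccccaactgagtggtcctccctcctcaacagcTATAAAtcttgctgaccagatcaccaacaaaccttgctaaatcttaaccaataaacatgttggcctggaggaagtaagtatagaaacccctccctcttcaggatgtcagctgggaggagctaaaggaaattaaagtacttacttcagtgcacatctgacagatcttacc
Tex101, chr7:24672051-24672300, minus strand: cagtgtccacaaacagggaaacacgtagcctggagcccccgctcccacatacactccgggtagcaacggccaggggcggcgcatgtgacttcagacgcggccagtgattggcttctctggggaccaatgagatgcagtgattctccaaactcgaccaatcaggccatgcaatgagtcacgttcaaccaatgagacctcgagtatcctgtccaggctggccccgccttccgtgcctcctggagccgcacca

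No motif was found in all 4 of the genes that fell. Pate1 and Ly6f each held 1 TATAAA, which 12.4% of the 32851 promoter windows of this length hold. D730048I06Rik held 1 AGAACA on the opposite strand, found in 16.1% of all windows, and Gm17727 held 1 TTCNNNGAA, found in 7.02%. TGACGTCA, in 1.55% of all windows, was in none of the 5 stretches. The stretch before Tex101 held none of the 4 motifs, but it does not stand for all uncalled members. The stretches of the uncalled Lypd4 and Lypd9 each held 1 AGAACA and that of Ly6g6c 1 TATAAA. The uncalled Lypd8 and Ly6c1 have 2 annotated starts each. The stretch before the first held 2 AGAACA in Lypd8 and 1 TATAAA in Ly6c1, and those before the second held none. The stretches of Cd59a, Cd59b, Spaca4 and Pate2 and the 3 of Lypd1 held none. The share of G and C was 43.2% for Pate1, 40% for D730048I06Rik, 37.6% for Gm17727, 46% for Ly6f and 59.6% for Tex101. Among other uncalled members it was 44.8% for Cd59a, 45.6% for Cd59b and 63.6% for Lypd4. In the GENCODE annotation 19 of the Pate1 bases lie within the 5′ end of the Pate1 gene itself, which starts further upstream there. No base of the other 4 printed stretches lies in an exon. Annotated exons hold all 250 bases of the Lypd4 stretch, 216 of Pate2, 56 of Cd59b and 54 of Spaca4. They also hold parts of the first Lypd1 and the second Ly6c1 stretch.

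Pate1, D730048I06Rik and Gm17727 lay together on chromosome 9, and with Ly6f they were the 4 called members under 1 FPKM in both hemicastrated libraries. The 6 members of this locus span 220 kilobases, from Pate2 to D730048I06Rik. Pate1 (ENSMUSG00000091215, chr9:35685079-35687390, GRCm38), which encodes a secreted sperm-associated protein, was at 14.5 and 18.9 FPKM in the control pair, and was listed at 0 in both hemicastrated libraries. Both controls were above 10 FPKM, and no hemicastrated value was above 0. It was called at an adjusted p of 7.98e-05 (limma). Its fitted difference was -4.13 with the pseudocount of 1 FPKM and -7.38 with 0.1 FPKM, so it sets no bound on the fold.

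D730048I06Rik (ENSMUSG00000032108, chr9:35788050-35790112) was at 6.73 and 9.41 FPKM in the control pair against 0.186 and 0.164 FPKM in the hemicastrated pair. The hemicastrated mean was 2.17% of the control mean, with no overlap between the groups. On the log2(FPKM + 1) scale the fitted difference was -2.93 (SE 0.18, limma adjusted p = 0.000658), and with a pseudocount of 0.1 FPKM it was -4.87. Gm17727 (ENSMUSG00000090738, chr9:35776524-35778109) lay lower at 2.2 and 2.64 FPKM in the control pair against 0.222 and 0.365 FPKM in the hemicastrated pair. The hemicastrated mean was 12.1% of the control mean. On the log2(FPKM + 1) scale the fitted difference was -1.40 (SE 0.15, limma adjusted p = 0.00978), which understates the ratio of such low values, and with a pseudocount of 0.1 FPKM it was -2.70. All exonic bases of Gm17727 also belong to Gm27235, an overlapping gene on the same strand. Gm27235 also shares 260 of the 1334 exonic bases of D730048I06Rik, so the authors' estimate could move reads between it and either gene. Gm27235 was at 0.00026 and 2.77e-05 FPKM in the control pair against 0.0241 and 0.169 FPKM in the hemicastrated pair.

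The other PATE members were low in every library. Pate2 was at 0.993 and 2.35 FPKM in the control pair against 0.382 and 0.46 FPKM in the hemicastrated pair. Its groups did not overlap, but the controls differed from each other by more than the hemicastrated values did from the lower control. The log2 fold change of -0.86 (SE 0.25) was not called (limma adjusted p = 0.293). Its annotated exons overlap those of Pate1, Pate3, Pate4 and Hyls1 on the opposite strand, which a protocol that marks no strand cannot tell apart. Pate3 was at 0.198 and 0.142 FPKM in the controls, at 0.0523 FPKM in hemicastrated 1 and listed at 0 in hemicastrated 2. Pate4, known from the seminal vesicle, was at 0.0926 and 0.168 FPKM against 0.06 and 0.104 FPKM, with overlap between the groups.

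The tested neighbours of the PATE genes were not called. Within 500 kilobases of these members the table holds 17 other genes, of which 9 were tested. In limma 0 fell and 0 rose, where 1.19% and 0.106% of all tested genes did, and 0 stood at an unadjusted p under 0.05. All 9 start before Pate2 in chromosome order. The other genes between or beyond Pate1, Gm17727 and D730048I06Rik stood at or below 0.277 FPKM and were not tested. Among them Gm17677, 9230110F15Rik and 9230113P08Rik have PATE names in RefSeq. The nearest tested neighbour, Hyls1, a centriole protein gene, was at 31.8 and 31.8 FPKM in the control pair against 32.5 and 34.1 FPKM in the hemicastrated pair. Ddx25, a helicase of male germ cells, was at 59.9 and 60.6 FPKM against 64 and 64.2 FPKM. Besides D730048I06Rik and Gm17727, which the rule adds by name and which both fell, RefSeq gives Ly6, Lypd or Pate names to 10 further genes of the table that carry other GENCODE symbols, and the rule leaves these out. Without D730048I06Rik and Gm17727, 4 members fell. Of the 10, 4 were listed at 0 in all 4 libraries, 2 were tested and 0 were called by limma (0 at an unadjusted p under 0.05). The tested pair were A630095E13Rik (Pate14), at 1.93 and 1.97 FPKM against 2.59 and 2.01 FPKM, and Gm4763 (Lypd11) on chromosome 7, at 59.2 and 53.8 FPKM against 55.9 and 58.8 FPKM.

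The Ly6 locus of chromosome 15 held 16 members over 852 kilobases, of which 8 were tested and 3 fell. Ly6f (ENSMUSG00000022583, chr15:75268421-75272235), a GPI-anchored Ly6 antigen, was at 18.4 and 26.4 FPKM in the control pair, and was listed at 0 in the library hemicastrated 1 but stood at 0.0832 FPKM in hemicastrated 2. Both controls lay far above both hemicastrated values. It was called at an adjusted p of 0.000119 (limma), with a fitted difference of -4.47 (SE 0.19) that depends on the pseudocount as for Pate1. Ly6f was the only tested member other than Pate1 with a hemicastrated library listed at 0.

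Ly6e (ENSMUSG00000022587, chr15:74955051-74959905), a surface protein of many epithelial and immune cells, was the second highest member in the controls. It stood at 136.8 and 169.6 FPKM in the control pair against 34.7 and 51.6 FPKM in the hemicastrated pair. The group means of 153.2 ± 23.2 and 43.1 ± 11.9 FPKM (SD, n = 2 each) are 3.55-fold apart, and the groups did not overlap. The log2 fold change was -1.82 (SE 0.20, limma adjusted p = 0.0088). In hemicastrated mice Ly6e thus kept a level near that of Gml, where Pate1 and Ly6f had next to none. In limma its adjusted p was 0.064 when control 1 was left out and 0.113 when control 2 was left out, and it was 0.0803 when low genes stayed in.

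Ly6a (ENSMUSG00000075602, chr15:74994877-74998031), the stem cell antigen Sca-1, was at 16.7 and 16.8 FPKM in the control pair against 4.76 and 2.11 FPKM in the hemicastrated pair. The controls were nearly equal and the hemicastrated pair were further apart, yet all hemicastrated values were below all control values. The means were 4.88-fold apart, and the log2 fold change was -2.07 (SE 0.27, limma adjusted p = 0.0231). In limma its adjusted p was 0.211 when control 1 was left out, 0.224 when control 2 was left out, 0.132 when low genes stayed in and 0.0661 under limma's robust option. Gm17727 likewise stood at an adjusted p of 0.0574 when control 1 was left out and of 0.0925 when control 2 was (limma). When either control was left out, 3 members fell: Ly6f, Pate1 and D730048I06Rik.

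Ly6c1, a close relative of Ly6a that marks vessel lining and some leukocytes, was at 5.67 and 4.97 FPKM in the control pair against 2.95 and 2.48 FPKM in the hemicastrated pair. The groups did not overlap, and the means were 1.96-fold apart. Its log2 fold change of -0.77 (SE 0.14) was not called (limma adjusted p = 0.0852). Ly6a and Ly6c1 transcripts are 96.6% identical over 263 bases, and Ly6c1 and Ly6c2 transcripts 97.6% over 822 bases, so the split of reads among these genes is uncertain. Ly6c2 was at 0.138 FPKM in control 1 and 0.285 FPKM in hemicastrated 1 and was listed at 0 in the other two libraries, and Ly6i was listed at 0 in both controls and was at 0.0678 and 0.118 FPKM in the hemicastrated libraries. Ly6g, the neutrophil antigen Gr-1, was listed at 0 in all 4 libraries.

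**Figure D2:**
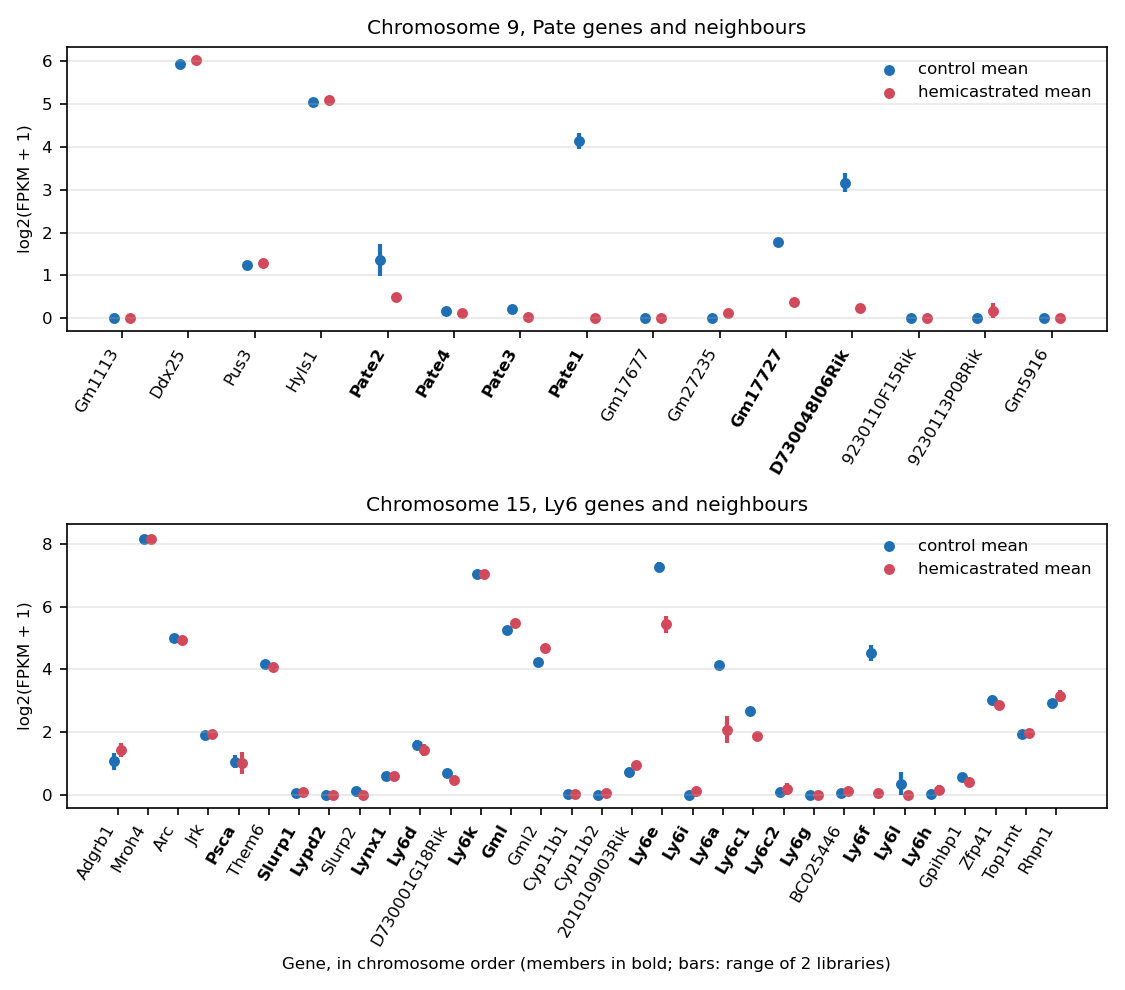
Mean log2(FPKM + 1) of each group for the members of chromosome 9 (upper panel) and chromosome 15 (lower panel) and their nearest table genes, in chromosome order, with members in bold and bars for the range of the 2 libraries. Pate1, Gm17727 and D730048I06Rik drop, while Ddx25 and Hyls1, which precede them in chromosome order, do not. Ly6e, Ly6a and Ly6f drop in the Ly6 locus, while Ly6k and Gml do not.

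The 3 members that fell in the chromosome 15 locus lay from Ly6e to Ly6f, a stretch drawn after the calls were seen. The other tested member there, Ly6c1, was not called. Ly6i, Ly6c2 and Ly6g within it, and Ly6l and Ly6h beyond it, were not tested. From Psca to Gml the tested members Psca, Ly6d, Ly6k and Gml were not called. Whether place in the locus matters was not tested. Psca, first found in prostate, was at 0.808 and 1.41 FPKM in the control pair against 0.589 and 1.55 FPKM in the hemicastrated pair, and Ly6d, a lymphocyte and keratinocyte antigen, at 2.38 and 1.7 against 1.34 and 2.05 FPKM. Both overlapped between the groups. Of 32 other table genes within 500 kilobases, 19 were tested, and in limma 0 fell and 0 rose, where 1.19% and 0.106% of all tested genes did. At an unadjusted p under 0.05, 0 were lower and 1, Gml2, was higher. Gml2, which shares 91.9% identity over 444 bases with Gml, was at 16.5 and 19.5 FPKM in the control pair against 24.2 and 25.2 FPKM in the hemicastrated pair.

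Lypd4, Tex101, Ly6k and Spaca4, known from germ cells, were high in both groups, and none of these 4 was called. In all, 8 uncalled members had a control mean of at least 10 FPKM, with log2 fold changes from -0.19 to 0.22 and adjusted p from 0.467 to 0.991 (limma). Lypd4, which sperm need to pass from the uterus into the oviduct, was the highest member, at 294.1 and 302.1 FPKM in the control pair against 279.1 and 304.0 FPKM in the hemicastrated pair. Tex101, a germ cell glycoprotein required for the maturation of the sperm protein ADAM3, was at 142.1 and 136.4 FPKM against 140.4 and 139.0 FPKM. Its partner Ly6k was at 135.9 and 126.7 FPKM against 122.5 and 138.8 FPKM. The groups overlapped in all 3 of these genes, and their log2 fold changes were -0.03 (SE 0.08), 0.01 (SE 0.08) and -0.01 (SE 0.10). An antisense gene shares 395 of the 829 exonic bases of Ly6k.

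Spaca4, an acrosomal membrane protein that helps sperm through the egg coat, was at 76.6 and 78.4 FPKM in the control pair against 88.4 and 89.1 FPKM in the hemicastrated pair. Both hemicastrated values were above both controls, with a log2 fold change of 0.19 (SE 0.08) that was not called (limma adjusted p = 0.467). Gml, a GPI-anchored relative on chromosome 15, was at 40.2 and 34.1 FPKM against 46.1 and 40.8 FPKM (log2 fold change 0.22, SE 0.12). Lypd9 on chromosome 11 was at 83.9 and 89.9 FPKM against 90.2 and 106.7 FPKM (log2 fold change 0.17, SE 0.11). In these 3 genes both hemicastrated libraries were above both controls, as in 16.3% of all tested genes. Over the 21 tested members this held for 4 genes, and the reverse, both hemicastrated libraries below both controls, for 8 genes, against 24.8% of all tested genes. The fourth was Lypd8, an intestinal surface protein, at 0.915 and 0.895 FPKM in the control pair against 1.21 and 1.19 FPKM in the hemicastrated pair.

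Cd59 blocks the last step of complement attack, and mice carry the gene as a pair on chromosome 2. Cd59b was at 11.5 and 18 FPKM in the control pair against 12.3 and 12.7 FPKM in the hemicastrated pair (log2 fold change -0.19, SE 0.20). Cd59a was at 7.51 and 4.76 FPKM against 5.95 and 7.65 FPKM (log2 fold change 0.15, SE 0.22). Neither was called, and the groups overlapped in both. The transcripts of the pair are 90.4% identical over 394 bases, so reads could pass between them. Ly6g6c, in the major histocompatibility region of chromosome 17, was at 19 and 19.9 FPKM against 16.2 and 19.4 FPKM (log2 fold change -0.13, SE 0.12). Its neighbour Ly6g6f, a platelet protein, was at 1.07 and 1.11 FPKM against 0.815 and 0.656 FPKM and fell short of the filter. Lypd1, which binds nicotinic receptors in the brain, was at 2.05 and 2.42 FPKM against 1.87 and 2.06 FPKM and shares 1202 exonic bases with Gpr39 on the opposite strand.

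In control levels the order of the leading members was Lypd4, Ly6e, Tex101, Ly6k, Lypd9, Spaca4 and Gml. Lypd4 stood well above the rest at 298.1 ± 5.69 FPKM. The means of Ly6e (153.2 ± 23.2 FPKM) and Tex101 (139.2 ± 4.03 FPKM) differed by less than the SD of Ly6e, while both control values of Ly6k (131.3 ± 6.52 FPKM; SD, n = 2 each) lay below both of Tex101. In the hemicastrated libraries Ly6e dropped to the level of Gml, at 43.1 ± 11.9 and 43.4 ± 3.79 FPKM, and the other 6 kept their order.

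**Figure D3:**
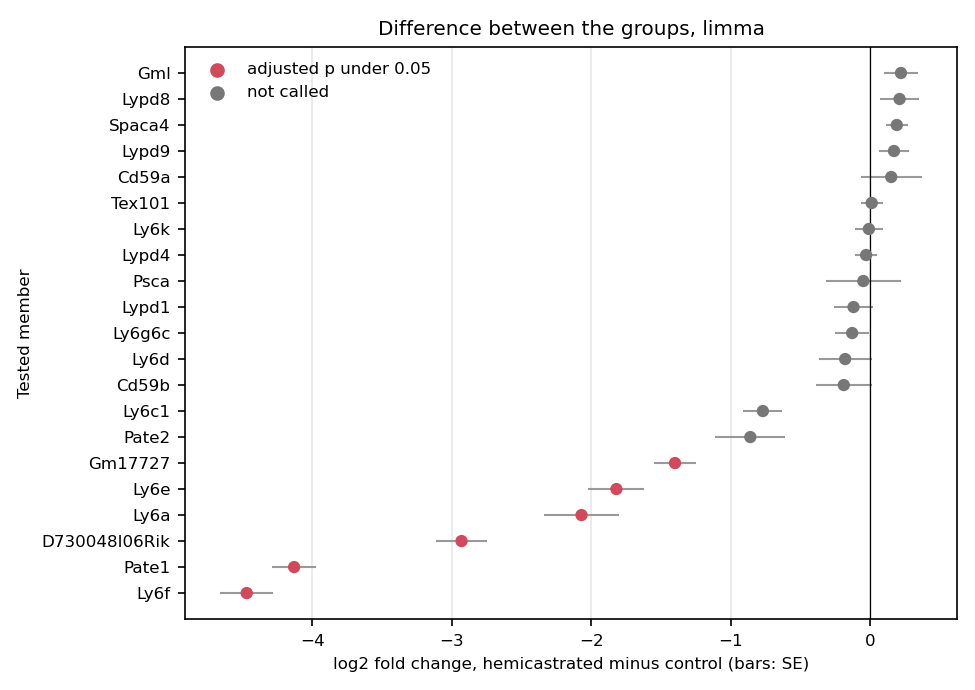
Log2 fold change on the log2(FPKM + 1) scale, hemicastrated minus control, of the 21 tested members, with bars for the standard error and red points for an adjusted p under 0.05 in limma. The 6 red points run from -4.47 for Ly6f to -1.40 for Gm17727, and the others lie between -0.86 for Pate2 and 0.22 for Gml.

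The remaining 20 members did not reach the filter, and 15 of them were listed at 0 in at least 1 library. Apart from Ly6g6f they stayed at or below 0.639 FPKM in every library. The acetylcholine receptor regulators Lynx1 and Slurp1 were at 0.591 and 0.419 FPKM against 0.609 and 0.424 FPKM, and at 0.0786 and 0.0186 FPKM against 0.0446 and 0.0782 FPKM. Plaur, the urokinase receptor that gave the fold its other name, was at 0.0369 and 0.328 FPKM in the control pair, was listed at 0 in the library hemicastrated 1 and stood at 0.0905 FPKM in hemicastrated 2. Lypd6, a modulator of Wnt signalling, was at 0.389 and 0.604 FPKM in the control pair against 0.122 and 0.0756 FPKM in the hemicastrated pair, without overlap. Lypd2 and Ly6g were listed at 0 throughout. Lypd6b, Lypd3, Lypd5, Ly6h, Ly6l, Ly6g6d, Ly6g6e, Ly6g5b and Ly6g5c were the others not yet described. When every gene above 0 in at least 1 library was tested, 18 of the 20 could be fitted and 0 were called by limma, with 4 at an unadjusted p under 0.05 (Lypd6 and Pate3 lower, Ly6i and Ly6g6d higher).

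Genes that act with the family were mostly not called. In the ADAM3 maturation pathway, in which Tex101 and Ly6k act, 23 of 24 listed genes were tested, and Ly6e was the single one that fell (median log2 fold change 0.01). Ly6e stands in that list as a member of the family. At an unadjusted p under 0.05, 1 gene was lower and 2 were higher, Pmis2 and Adam5. Pmis2, a sperm membrane protein gene, was at 60.4 and 59 FPKM against 68 and 74.1 FPKM (limma adjusted p = 0.392). Among genes that build, attach and trim the GPI anchor, 28 were tested and 0 were called by limma (median -0.11). Of the 28, 22 had a negative log2 fold change and 6 a positive one. At an unadjusted p under 0.05, 3 (Pigs, Gpld1 and Pigu) were lower and 0 higher, where 6.52% of all tested genes were lower. Of the 32 in the table, tested or not, 12 had both hemicastrated libraries below both controls and 1 had both above. Among all tested genes these shares were 24.8% and 16.3%. The smallest p in that list belonged to Pigs, a subunit of the enzyme that attaches the anchor, at 15.6 and 15.6 FPKM against 12.5 and 12.6 FPKM (adjusted p = 0.364), and to Gpld1, a phospholipase that cuts it, at 1.97 and 1.67 FPKM against 0.581 and 1.29 FPKM (adjusted p = 0.412).

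In the lists of receptors, proteases and complement, 1 gene fell. Among 16 nicotinic acetylcholine receptor subunits, possible targets of PATE, Lynx1 and Slurp1 proteins, Chrne alone was tested, at 63.7 and 55.8 FPKM in the control pair against 72.2 and 66.3 FPKM in the hemicastrated pair (limma adjusted p = 0.555). In the urokinase and plasminogen system, 9 of 17 genes were tested and 1 fell (median -0.21): Serpine2, an inhibitor of urokinase and thrombin, at 5.11 and 5.89 FPKM in the control pair against 1.03 and 0.472 FPKM in the hemicastrated pair (log2 fold change -1.91, SE 0.19, limma adjusted p = 0.0059). At an unadjusted p under 0.05 in limma, 3 of the 9 were lower (Serpine2, S100a10 and Anxa2) and 0 higher. Among all tested genes 6.52% were lower and 3.98% higher at that threshold. Of the 17, tested or not, 9 had both hemicastrated libraries below both controls and 0 had both above. Among all tested genes these shares were 24.8% and 16.3%. Plau, the urokinase gene, was 1 of the 9 but was not tested, at 1.18 and 1.23 FPKM against 0.509 and 0.234 FPKM. For complement and its inhibitors, 10 of 16 genes were tested and 0 called by limma (0 lower and 2 higher at an unadjusted p under 0.05). Cd55b, an inhibitor of complement, was at 49.1 and 43.6 FPKM against 56.1 and 54.6 FPKM (adjusted p = 0.424, limma), and C8g, a chain of the attack complex, was at 17.9 and 7.99 FPKM against 21 and 22.1 FPKM (adjusted p = 0.461, limma). Of 18 tested genes for the contact of sperm and egg, 16 had a positive log2 fold change (median 0.15), and 0 rose in limma. At an unadjusted p under 0.05, 4 (Spam1, Hyal5, Spaca1 and Crisp2) were higher, where 3.98% of all tested genes were. The direction was not particular to this list: all 5 round spermatid markers, Spaca1 among them, were positive too (median 0.27), with 4 higher at that threshold. Of the 18, Crisp1, a sperm-coating protein made in the epididymis, was the one that fell, from 544.9 and 786.1 FPKM to 0.0453 and 0.0391 FPKM.

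Ly6a, Ly6c1 and Ly6e are also expressed by vessel and blood cells, whose markers were mostly not called. The 6 endothelial markers summed to 12.3 and 8.61 FPKM in the control pair against 10.2 and 10.2 FPKM in the hemicastrated pair, with 0 of 2 tested genes (Egfl7 and Cldn5) called by limma and 0 at an unadjusted p under 0.05. The tested pair made up most of these sums. Of the 6, 3 that were not tested (Pecam1, Cdh5 and Kdr) had both hemicastrated libraries below both controls, and 0 had both above. The 6 macrophage markers summed to 51.1 and 49.1 FPKM against 43.1 and 37.9 FPKM, with 0 of 5 called by limma and 1, Lyz2, lower at an unadjusted p under 0.05. Of the neutrophil markers S100a8 was the one tested and fell, from 5.74 and 5.32 FPKM to 0.192 FPKM in hemicastrated 1 and a listed 0 in hemicastrated 2, while Ngp and Camp were at or below 0.134 FPKM in every library. The fourth neutrophil marker, S100a9, stood at 0.894 and 0.132 FPKM in the control pair against a listed 0 and 0.136 FPKM in the hemicastrated pair. The 3 B cell markers stayed between 0.0756 and 0.192 FPKM in sum. Among T and NK cell markers 0 of 1 tested gene was called by limma, and among erythroid markers 0 of 3. The part of these cells in the Ly6 values was not tested.

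**Figure D4:**
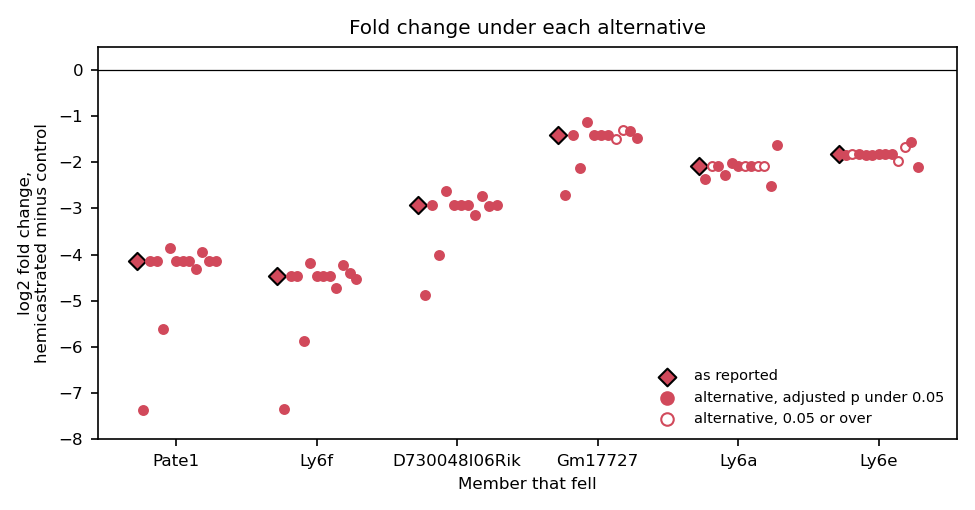
Log2 fold change of the 6 members that fell, as reported (diamonds) and under each alternative processing in which the gene was tested (circles), with open circles where the adjusted p was 0.05 or more in limma. Pate1, Ly6f and D730048I06Rik have filled circles throughout, while Gm17727, Ly6a and Ly6e have open ones, and no value of the 6 genes is above -1.12.

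The called members differed in how many alternatives called them. Pate1 and Ly6f were called in 12 of 12 alternatives and D730048I06Rik in 11 of the 11 in which it passed the filter. Ly6e and Gm17727 were called in 9 of 12 and 9 of 11, and Ly6a in 8 of 12. The range of adjusted p over these alternatives was 2.72e-06 to 0.00632 for Pate1, 1.52e-06 to 0.00853 for Ly6f, 3.88e-05 to 0.0197 for D730048I06Rik, 0.00353 to 0.0925 for Gm17727, 3.53e-05 to 0.113 for Ly6e and 0.000231 to 0.224 for Ly6a (limma).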

How the data were processed

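Messenger RNA of the right testis was sequenced in 2 hemicastrated and 2 control mice after poly(A) selection and random priming, per the labels' protocols, which describe no strand marking. TopHat2 2.0.11, Cufflinks 2.2.1 and build GRCm38 are listed, with no role, per the submitters' processing notes, and the authors' annotation is unstated in them. The authors deposited FPKM per gene and library. FPKM carry no read counts, so no counting interval is given.

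Members were matched by GENCODE M21 (GRCm38) symbols, and RefSeq (GRCm38.p6) entries were found for all 41, with promoter sequences for 26. Genes averaging 1 FPKM or more were compared in limma 3.58.1 (R 4.3.3) with a variance trend and no covariate on log2(FPKM + 1), two-sided, adjusted by Benjamini-Hochberg over all genes tested. With 2 libraries a group, calls rest on the spread shared between genes. The code was tested on simulated data. Transcripts similar to members (at least 90% identity over 200 bases) were sought with BLAST 2.17.0. Members and lists were chosen with earlier results of these data known. Every member that reached 1 FPKM in a library is named with its values. From the gene lists, the called genes are named, or otherwise the tested pair with the smallest p. The chromosome 15 neighbours were compared, and Hyls1, Ddx25, Gml2, Cst8, Plau and the other markers and neighbours were named after their values were seen. Protein sequences were not used here. The closing section gives the alternatives.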

Additional observations from a re-analysis of the deposited data

How the results depend on the processing

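With a mean of at least 5 FPKM required, 63 of all tested genes were lower and 7 higher instead of 135 and 12, fewer genes being tested, and 4 members were lower. With no filter on low values 3 of all tested genes were higher, and 4 members were lower. With robust hyperparameters 5 members were lower. With the replicate block, 30 of all tested genes were higher and 167 lower. Ly6c1 then passed the threshold (limma adjusted p = 0.0467), giving 7 lower members. The labels name no litter or day for the numbers. Deviations of same-numbered libraries correlated at 0.014 across genes, which cannot exclude a batch that acts on some genes. Leaving out 1 library gave 3 to 6 lower members, 78 to 156 lower and 0 to 26 higher genes in all, where the 0 came without control 2 with 1000 genes at an unadjusted p under 0.05 in limma. The lone library of a group is then assumed to vary like the others. In every alternative 0 members were higher.

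Among values of single members under the alternatives, 220 kept their direction and side of the threshold, 14 changed sign, 9 lost the call and 1 gained it. All sign changes were in uncalled members. Tex101 went to -0.01 rescaled to TPM and under quantile normalization, and Psca to 0.16 under quantile normalization. Leaving out 1 library gave ranges of -0.02 to 0.03 for Tex101, -0.40 to 0.29 for Psca, -0.49 to 0.11 for Cd59b, -0.14 to 0.43 for Cd59a, -0.37 to 0.01 for Ly6d, -0.10 to 0.08 for Ly6k and -0.09 to 0.03 for Lypd4; the cause was not tested. Unknown depth limits what can be said of members under 1 FPKM.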
